A study of Sus scrofa with 6 samples.

Results

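SLC17A7 and SLC17A6 encode the vesicular glutamate transporters VGLUT1 and VGLUT2, and they were followed here in brain RNA of wild boar and domestic pig. The pair makes up 2 of the 21280 protein-coding genes measured. Both were matched from pig Ensembl identifiers to symbols, as ENSSSCG00000003170 for SLC17A7 and ENSSSCG00000013343 for SLC17A6. They were chosen by their TPM values in these same libraries, with the difference between the groups already known, so their levels and ratio are described without a test. The groups were 3 libraries of the breed Wild boar, from brain, and 3 libraries of Rongchang pig, a Chinese domestic breed, from cerebrum. All 6 are labelled female and 2 years old. The domestic pig libraries are labelled as a re-analysis of earlier ones, and prefrontal cortex is the region in the title of the series. Breed, source of the libraries and tissue label separate the same libraries, so their parts in any difference cannot be told apart.

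Vesicular glutamate transporters load glutamate into synaptic vesicles, using the gradient that a proton pump in the vesicle membrane sets up. In rodents and primates SLC17A7 is the main form in pyramidal neurons of the cerebral cortex and hippocampus. SLC17A6 is the main form in the thalamus, hypothalamus and brainstem, and cortical neurons, in rodents above all those of layer 4, hold lower levels of it. The ratio of both RNAs is therefore a common sign of how much cortical against subcortical or layer-specific material a tissue piece holds, although neither gene marks a single cell type. In bulk tissue, fewer cells of a type and less RNA per cell cannot be told apart.

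Values are TPM, a measure of abundance scaled by transcript length and by the library total, so levels of the 2 genes can be set beside each other. The TPM of all listed genes summed to 17.17% to 31.04% of the full total of 1000000 in the wild boar libraries and 23.49% to 40.88% in the domestic pig libraries, so the deposited values of 1 gene also move with the unlisted rest. Differences are therefore given after median-ratio rescaling between libraries, which moved the median log2 difference of the 11752 genes tested to 0.01, against -0.41 on deposited TPM. The ratio of 2 genes within a library is free of this scaling. Domestic pig 3 stood apart in markers of the striatum, a subcortical nucleus: its summed TPM of 10 striatal genes was 139, against 16.7 to 36.5 in the wild boar libraries and 27.3 and 44.7 in domestic pig 1 and 2.

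SLC17A7 RNA outweighed SLC17A6 RNA in every library, and by far more in wild boar. The ratio of SLC17A7 to SLC17A6 TPM was 9.03, 20.5 and 15.7 in wild boar 1, 2 and 3. In domestic pig 1, 2 and 3 the ratio was 2.51, 3.86 and 2.98. The groups did not overlap, and the lowest wild boar ratio was 2.34 times the highest domestic pig ratio.

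As geometric means, the ratio was 14.3 in wild boar, against 3.07 in domestic pig, or 4.66 times as high in wild boar. On the log2 scale it averaged 3.84 ± 0.60 in wild boar, against 1.62 ± 0.31 in domestic pig (SD, n = 3 each), a difference of 2.22 with an SE of 0.39. Put as a share, SLC17A6 made 9.97%, 4.64% and 5.99% of the summed TPM of both genes in wild boar, against 28.5%, 20.6% and 25.1% in domestic pig. Without domestic pig 3, the library high in striatal markers, the difference of the log2 ratio was 2.20. Libraries also varied within a group: the highest ratio was 2.27 times the lowest in wild boar, against 1.54 times the lowest in domestic pig.

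**Figure D1:**
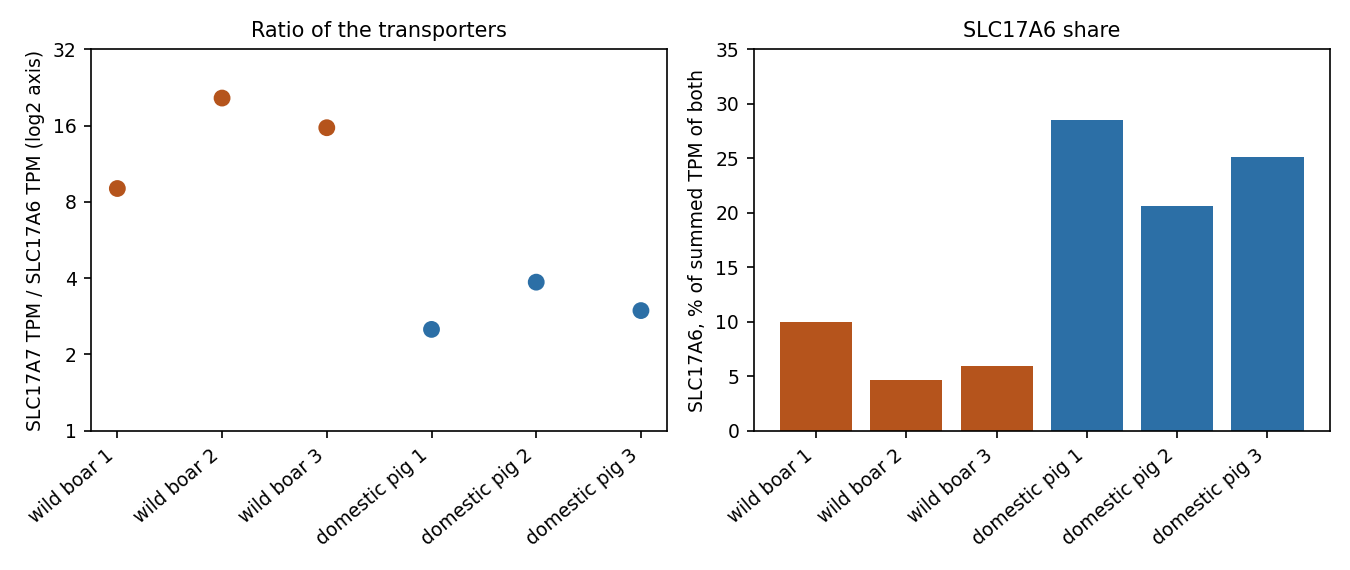
The left panel plots the ratio of SLC17A7 to SLC17A6 TPM for each library on a log2 axis, and the right panel plots SLC17A6 as a percentage of the summed TPM of both genes. The wild boar libraries lie between 9.03 and 20.5 in ratio, all above the domestic pig libraries at 2.51 to 3.86.

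SLC17A6 made the larger part of this difference. Its deposited level was 4.10, 1.46 and 3.52 TPM in wild boar 1 to 3, against 7.57, 13.8 and 10.6 TPM in domestic pig 1 to 3. Every wild boar library lay below every domestic pig library. The mean was 3.03 ± 1.39 TPM in wild boar, against 10.7 ± 3.10 TPM in domestic pig (SD, n = 3 each). After rescaling, the level was 4.65, 2.53 and 3.02 TPM in wild boar, against 8.64, 9.58 and 7.73 TPM in domestic pig, again with no overlap. On log2(rescaled TPM + 1) the difference, wild boar minus domestic pig, was -1.16 (SE 0.18), and on deposited TPM the difference was -1.57 (SE 0.39).

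SLC17A7 showed the reverse, with a direction that is clear only once libraries are brought to a common scale. Its deposited level was 37.0, 29.9 and 55.3 TPM in wild boar 1 to 3, against 19.0, 53.2 and 31.6 TPM in domestic pig 1 to 3. These ranges overlapped, and the means of 40.7 ± 13.1 TPM in wild boar, against 34.6 ± 17.3 TPM in domestic pig lay well within the spread (SD, n = 3 each). After rescaling, the level was 42.0, 51.9 and 47.5 TPM in wild boar, against 21.7, 37.0 and 23.0 TPM in domestic pig. The groups then separated, with domestic pig 2 closest to wild boar. The log2 difference was 0.80 (SE 0.20) after rescaling and 0.30 (SE 0.42) on deposited TPM. In the log2 ratio, without a pseudocount, SLC17A7 contributed 0.83 and SLC17A6 contributed -1.39 on rescaled TPM.

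**Figure D2:**
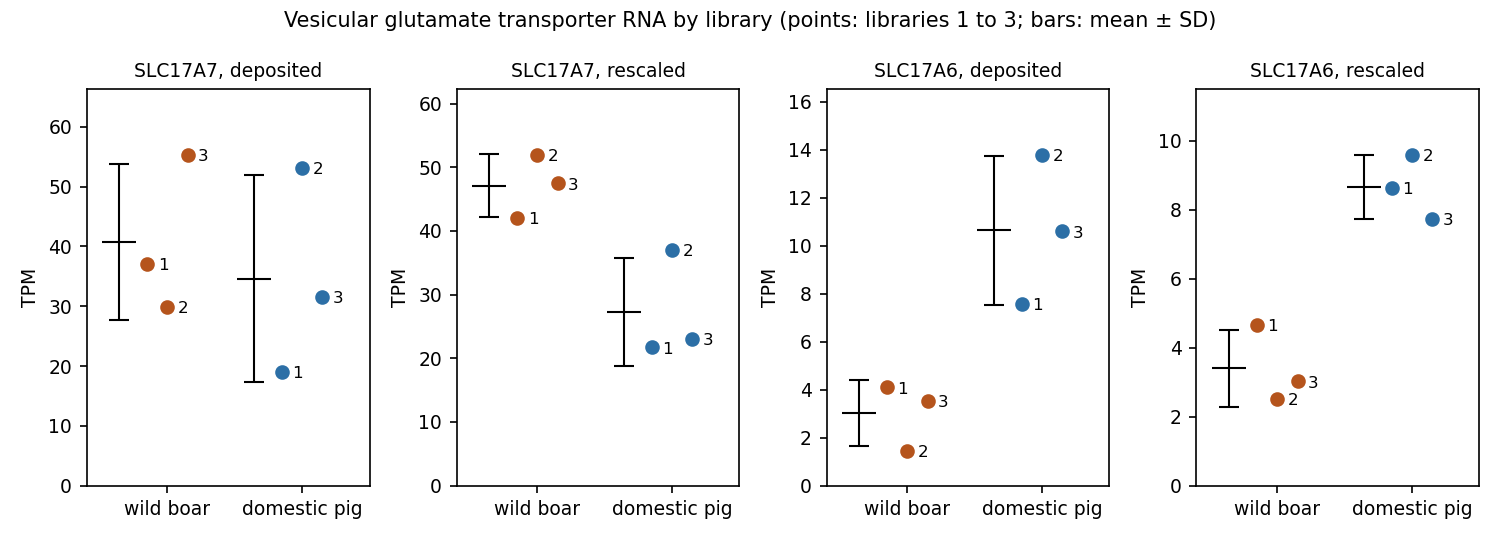
Levels of SLC17A7 and SLC17A6 in TPM, as deposited and after rescaling, with numbered points for the libraries and bars for mean ± SD (n = 3 each). SLC17A6 separates the groups on both scales, at 2.53 to 4.65 rescaled TPM in wild boar, against 7.73 to 9.58 in domestic pig, whereas SLC17A7 separates them only after rescaling.

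Among the 11752 genes tested, both transporters lay near the edges of the distribution of rescaled differences. Only 49 genes had a lower log2 difference than SLC17A6, and 193 had a higher one than SLC17A7. Separation of the groups is not rare in these data, however. After rescaling, the groups did not overlap for 41.7% of all tested genes, 19.6% with wild boar higher and 22.1% with wild boar lower. On deposited TPM, 17.5% did not overlap, 17.1% with wild boar lower and 0.408% with wild boar higher.

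**Figure D3:**
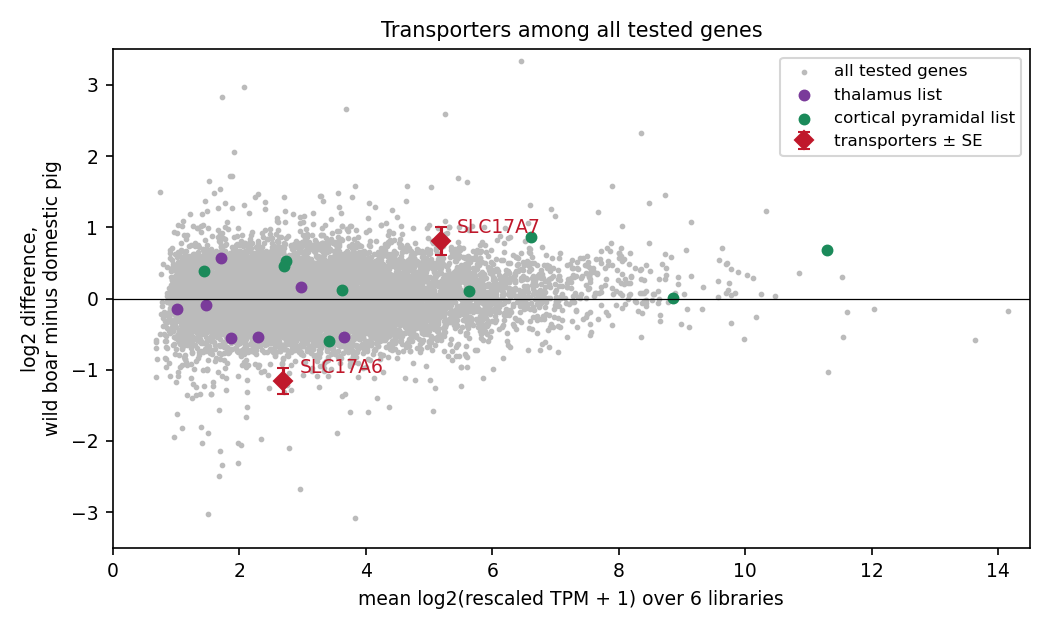
Each grey point is a tested gene, by its mean log2(rescaled TPM + 1) and its log2 difference, wild boar minus domestic pig. SLC17A7 at 0.80 and SLC17A6 at -1.16 (red, bars show SE) lie on opposite sides, while tested genes of the thalamus list (purple) and the cortical pyramidal list (green) mostly lie between them.

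SLC17A6 was also lower in wild boar when set against genes that all neurons share. Set against the summed TPM of 11 pan-neuronal genes, such as SNAP25 and SYT1 of the synaptic vesicle fusion machinery, SLC17A6 made 1.82, 1.15 and 1.18 per 1000 in wild boar. In domestic pig it made 3.73, 4.74 and 3.05 per 1000, with no overlap. SLC17A7 made 16.5, 23.6 and 18.6 per 1000 in wild boar, against 9.37, 18.3 and 9.10 per 1000 in domestic pig, where domestic pig 2 overlapped the wild boar range. Of these 11 genes, 3 passed at a limma adjusted p under 0.05 on rescaled TPM as higher in wild boar, as 8.88% of all tested genes did, and 0 as lower. They were SYN1, a synaptic vesicle phosphoprotein, by 1.13, GAP43, a growth cone protein, by 0.57 and UCHL1, a ubiquitin hydrolase of neurons, by 0.53 (limma adjusted p = 0.0496, 0.0408 and 0.0499). SYN1 missed the threshold without any 1 library except domestic pig 2 (limma adjusted p = 0.0775 to 0.142), GAP43 and UCHL1 without any 1 library (0.0541 to 0.152), and 0 of the 11 passed on deposited TPM. The summed pan-neuronal level overlapped, at 2201 to 2557 rescaled TPM in wild boar, against 2020 to 2534 in domestic pig.

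The third vesicular glutamate transporter was close to 0 in both groups. SLC17A8, which encodes VGLUT3 of scattered interneurons and raphe neurons, was at 0.134, 0.0305 and 0.387 TPM in wild boar, against 0.133, 0.288 and 0.293 TPM in domestic pig, too low to be tested. SLC17A5, the lysosomal sialic acid transporter sialin, was the only other family member tested, with a log2 difference of -0.02 (SE 0.11, limma adjusted p = 0.909). The other 6 of the 7 further family members stayed under 1 TPM in all libraries. SLC32A1, the vesicular GABA transporter, had 4.71, 3.09 and 5.62 TPM in wild boar, against 3.17, 6.46 and 5.55 TPM in domestic pig. Its log2 difference of 0.29 missed the threshold (SE 0.11, limma adjusted p = 0.0947).

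Of 37 tested genes of glutamate loading and its supply, in 3 lists, 6 passed as higher in wild boar and 0 as lower. A gene passed at a limma adjusted p under 0.05 on rescaled TPM, as 19.5% of all tested genes did, 8.88% as higher and 10.7% as lower in wild boar. The 6 genes are 16.2% of the 37, below the 19.5% of all genes that passed in either direction and above the 8.88% that passed as higher. Of 12 tested subunits and accessory proteins of the vesicular proton pump, 3 passed as higher and 0 as lower, with a list median of 0.36 on rescaled and -0.14 on deposited TPM. Their summed level did not overlap after rescaling, at 724.9 to 775.2 rescaled TPM in wild boar, against 589 to 617.7 in domestic pig, and overlapped on deposited TPM. ATP6AP1, an accessory subunit, was higher by 0.58 (SE 0.11, limma adjusted p = 0.0133) and passed without any 1 library. ATP6V0D1 and ATP6V1H, of its membrane and cytosolic sectors, were higher by 0.54 and 0.59. ATP6V0D1 missed the threshold without any 1 wild boar library or domestic pig 1 (limma adjusted p = 0.0564 to 0.0827), and ATP6V1H without any 1 library except domestic pig 2 (0.0620 to 0.0799).

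Of 11 tested genes of glutamate synthesis and recycling, 1 passed as higher and 0 as lower, with a list median of 0.09 on rescaled and -0.40 on deposited TPM. SLC25A22, a mitochondrial glutamate carrier, had 13.0, 10.9 and 23.9 TPM in wild boar against 7.0, 15.2 and 14.1 TPM in domestic pig. It was higher by 0.84 after rescaling (SE 0.15, limma adjusted p = 0.0111) and passed without any 1 library. SLC1A2, the main glial glutamate uptake carrier, was at -0.32 (limma adjusted p = 0.406). Of 14 genes of vesicle retrieval, 0 passed as lower and 2 as higher, with a list median of 0.23 on rescaled and -0.28 on deposited TPM. Their summed level was 620.5 to 650.2 rescaled TPM in wild boar, against 466.1 to 528.9 in domestic pig, with no overlap, and overlapped on deposited TPM. The genes that passed were DNM1, the dynamin that pinches vesicles off, by 0.64 and AP2A1, a clathrin adaptor subunit, by 0.62. Both missed the threshold without any 1 library except domestic pig 2 (limma adjusted p = 0.0718 to 0.0994 for DNM1 and 0.0747 to 0.134 for AP2A1). On deposited TPM 0 genes of these 3 lists passed, where 1.6% of all tested genes did and the log2 differences of the 6 named genes that passed were 0.04 to 0.36.

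The thalamus is a forebrain region rich in SLC17A6, and its markers did not move as 1 group. Of 7 tested genes of the thalamus list, 3 passed as lower in wild boar and 0 as higher, with a list median of -0.15 on rescaled and -0.43 on deposited TPM. Of all tested genes, 10.7% passed as lower and 8.88% as higher. LEF1, a Wnt pathway transcription factor, had 1.73, 1.22 and 2.27 TPM in wild boar against 2.87, 5.38 and 4.47 TPM in domestic pig, with a log2 difference of -0.55 (SE 0.10, limma adjusted p = 0.0127). NTNG1, which encodes the axonal surface protein netrin-G1, and RORA, a nuclear receptor also made in cortical layer 4, were lower by -0.54 each (limma adjusted p = 0.0370 and 0.0270). LEF1 passed without any 1 library. NTNG1 missed the threshold without any 1 library except wild boar 1 (limma adjusted p = 0.0529 to 0.116), and RORA without any 1 library at all (0.0503 to 0.0796). The count of 3 thus fell to 1 or 2 without 1 library. On deposited TPM 0 passed, where 1.46% of all tested genes passed as lower.

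The other 4 tested thalamus genes missed the threshold. ZIC1, a zinc finger transcription factor, pointed the other way: it had 4.21, 1.72 and 2.09 TPM in wild boar, against 1.09, 2.71 and 2.74 TPM in domestic pig, with a log2 difference of 0.57 (SE 0.24, limma adjusted p = 0.125). CALB2, the calcium buffer calretinin, which cortical interneurons make too, was at 0.16 (limma adjusted p = 0.623). PRKCD, a protein kinase C, and PLEKHG1 were at -0.10 and -0.15 (limma adjusted p = 0.632 and 0.438).

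Of the transcription factors of thalamic neurons that were too low to be tested, GBX2 and SHOX2 were at or near 0, and LHX9, TCF7L2 and ZIC4 were low. GBX2 did not exceed 0.0283 TPM in wild boar, against 0.0723 TPM in domestic pig, and SHOX2 did not exceed 0.0133 TPM in wild boar and 0.0536 TPM in domestic pig. LHX9 had 0.0264, 0.0292 and 0.0542 TPM in wild boar, against 0.144, 0.225 and 0.16 TPM in domestic pig. These LHX9 ranges did not overlap, as for 17.1% of all tested genes with wild boar lower on deposited TPM. TCF7L2 had 0.667, 0.449 and 0.973 TPM in wild boar, against 0.349, 1.74 and 0.695 TPM in domestic pig. ZIC4 was at 0.209 to 0.546 TPM in wild boar, against 0.191 to 0.457 TPM in domestic pig. The summed level of all 12 thalamus genes overlapped, at 26.9 to 32.6 rescaled TPM in wild boar, against 29.9 to 41.2 in domestic pig. The part of thalamic RNA in the SLC17A6 difference was not tested.

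Markers of the hypothalamus and of the midbrain and hindbrain, also regions of SLC17A6 neurons, were low in all libraries. All 9 hypothalamic genes with an identifier, of 12 in the list, were too low to be tested. Their highest value was 1.37 TPM, for the vasopressin gene AVP in wild boar 2, and OXT, the oxytocin gene, was listed at 0 in every library. All 13 midbrain and hindbrain genes stayed under 1 TPM in every library. The part of RNA from these regions in the SLC17A6 difference was not tested.

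The striatum holds few SLC17A6 neurons of its own. Of 6 tested striatal genes 0 passed in either direction on rescaled TPM, where 19.5% of all tested genes passed. All 6 log2 differences were below 0, with a list median of -0.48 on rescaled and -0.91 on deposited TPM. PENK, the enkephalin precursor, had 1.45, 0.975 and 3.70 TPM in wild boar, against 2.17, 4.09 and 21.2 TPM in domestic pig. It was at -0.96 after rescaling (limma adjusted p = 0.216) and passed as lower on deposited TPM, at -1.33 (limma adjusted p = 0.0188), as 1.46% of all tested genes did. ADORA2A, the adenosine receptor of striatal projection neurons, had 0.288, 0.139 and 0.333 TPM in wild boar, against 0.327, 0.327 and 4.54 TPM in domestic pig. PDE10A, a phosphodiesterase of the same neurons, had 6.98, 5.15 and 11.3 TPM in wild boar, against 6.29, 16.4 and 22.7 TPM in domestic pig. All 3 were highest in domestic pig 3, and PDE10A was high in domestic pig 2 as well. The part of striatal RNA in the transporter levels was not tested. Without domestic pig 3 the log2 difference was -1.22 for SLC17A6 and 0.70 for SLC17A7.

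**Figure D4:**
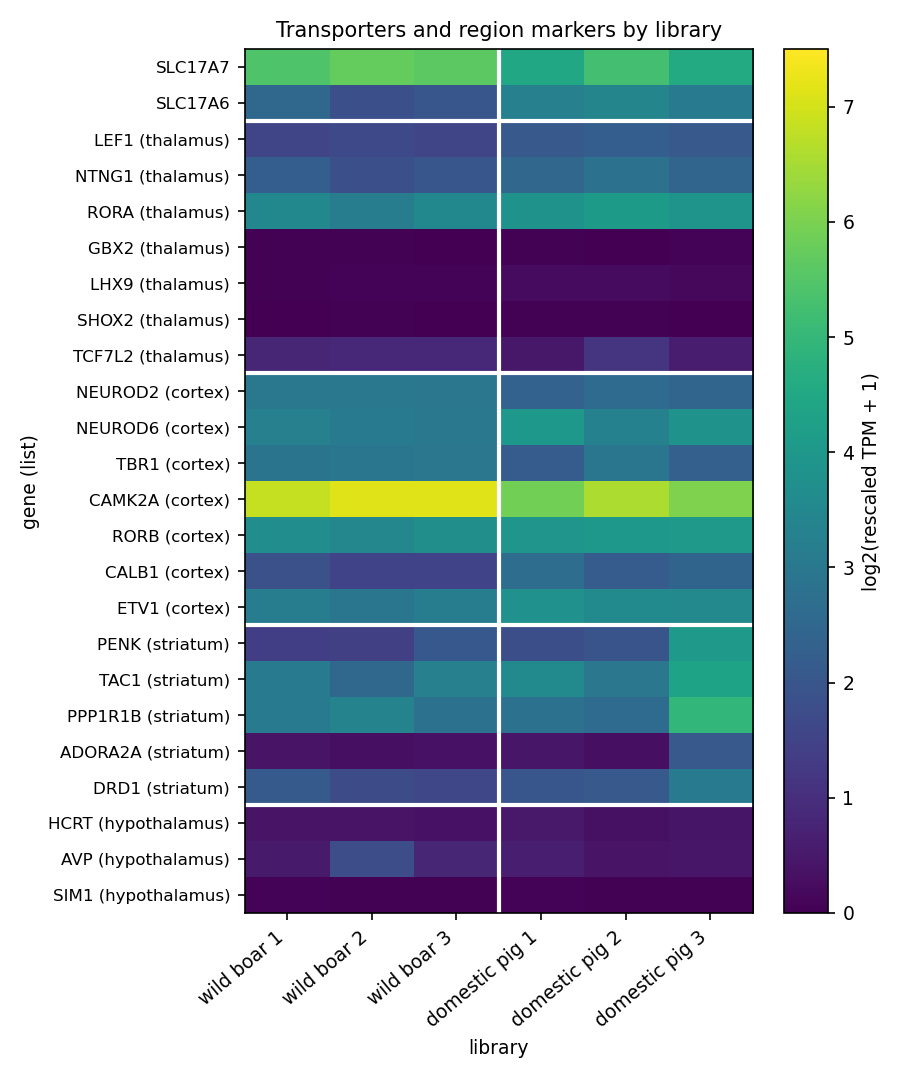
Colour gives log2(rescaled TPM + 1) for the transporters and for markers of 4 regions, picked for display after their values were seen, with libraries in columns. LEF1, NTNG1 and RORA follow SLC17A6 in being lower in wild boar, as does LHX9 at a very low level. The tested thalamus genes that missed the threshold are not shown: ZIC1 and CALB2, at 0.57 and 0.16, and PRKCD and PLEKHG1, at -0.10 and -0.15. GBX2 and SHOX2 are near 0 throughout, and ADORA2A and PPP1R1B stand out in domestic pig 3.

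Of 9 tested genes of cortical pyramidal neurons, 2 passed as higher in wild boar and 0 as lower, with a list median of 0.39 on rescaled and 0.02 on deposited TPM. The shares over all tested genes were 8.88% as higher and 10.7% as lower. CAMK2A, the alpha subunit of the calcium-dependent kinase of excitatory synapses, had 101, 79.8 and 162 TPM in wild boar against 51.9, 136 and 89.2 TPM in domestic pig. It was higher by 0.86 after rescaling (SE 0.19, limma adjusted p = 0.0195), as was NEUROD2, a transcription factor of cortical excitatory neurons, by 0.52 (SE 0.11, limma adjusted p = 0.0166). CAMK2A missed the threshold without wild boar 2 or 3 or domestic pig 1 or 3 (limma adjusted p = 0.0534 to 0.0651), and NEUROD2 without any 1 wild boar library or domestic pig 1 (0.0515 to 0.0611). NEUROD6, a related factor, was at -0.60 and missed the threshold (limma adjusted p = 0.0507).

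Genes of cortical layers gave 2 calls, 1 in each list and both lower in wild boar. That is near the share of all tested genes that passed as lower, 10.7%. Of 7 tested genes of the upper layers and layer 4, CALB1, the calcium buffer calbindin, was lower by -0.79 (SE 0.16, limma adjusted p = 0.0146). RORB, the layer 4 nuclear receptor, had 10.5, 5.78 and 14.1 TPM in wild boar against 12.3, 21.4 and 20.8 TPM in domestic pig, and at -0.35 it just missed the threshold (SE 0.11, limma adjusted p = 0.0527). Of 11 tested genes of deep layers, ETV1, a transcription factor of layer 5, was lower by -0.56 (SE 0.12, limma adjusted p = 0.0165). CALB1 missed the threshold without wild boar 2 or 3 (limma adjusted p = 0.0546 and 0.0510) and ETV1 without wild boar 2 or domestic pig 1 (0.0580 each). FEZF2, which marks neurons projecting below the cortex, was at 0.14 (limma adjusted p = 0.382). The medians of both layer lists were -0.09 and 0.08, near that of all genes, and no gene of the cortical lists passed on deposited TPM.

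Some genes of blood, vessels and glia passed as well. Of all tested genes, 8.88% passed as higher in wild boar and 10.7% as lower. All 4 tested red blood cell genes passed as higher in wild boar, and their summed level was 448 to 1318 rescaled TPM in wild boar, against 85.7 to 227 in domestic pig. HBM and AHSP reached 1 TPM only in the wild boar libraries, with at most 0.810 and 0.910 TPM in domestic pig. They thus met the filter for testing only through the group where they are high. The count of 4 was 1 to 3 without 1 library, where HBM and AHSP went untested once a wild boar library was left out. It was 2 on deposited TPM, AHSP among them, where 0.136% of all tested genes passed as higher. Of 7 tested endothelial and mural genes 3 passed as higher (1 to 3 without 1 library, 0 on deposited TPM), with summed levels of 83.8 to 89.5 rescaled TPM in wild boar, against 61.1 to 75.4 in domestic pig. These sums overlapped on deposited TPM. CLDN5, ACTA2 and TAGLN passed, at 1.28, 1.11 and 1.05 (limma adjusted p = 0.00623, 0.0466 and 0.0237). In this vessel list 6 log2 differences were above 0 and 1 below, with FLT1 at 0.01 and RGS5 at -0.43 (limma adjusted p = 0.986 and 0.1345). Of 4 tested genes of oligodendrocyte precursors, OLIG1 and OLIG2, transcription factors of that lineage, were higher by 0.53 and 0.70 (limma adjusted p = 0.0450 and 0.0202). PDGFRA and SOX10 missed the threshold, at -0.14 and 0.34 (limma adjusted p = 0.52 and 0.20). The summed level of the precursor list was 47.8 to 58.1 rescaled TPM in wild boar, against 33.5 to 46.5 in domestic pig, and overlapped on deposited TPM. OLIG1 missed the threshold without any 1 library except domestic pig 1 (limma adjusted p = 0.0575 to 0.132), and OLIG2 without wild boar 2 or 3 or domestic pig 3 (0.0529 to 0.0698). Of 7 microglial genes, C1QA, a complement subunit, was higher by 0.72 (limma adjusted p = 0.0402) and missed the threshold without any 1 library except wild boar 1 (0.0576 to 0.115). In that list 6 log2 differences were above 0 and 1 below, with C1QB at 0.01 and P2RY12 at -0.66 (limma adjusted p = 0.981 and 0.0829). Of 6 genes of oligodendrocytes, ERMN, a myelin sheath protein, was lower by -0.76 (limma adjusted p = 0.0147) and missed the threshold without wild boar 1 or domestic pig 1 (0.0563 and 0.0523). Among these genes 3 log2 differences were above 0 and 3 below, with CNP at 0.47 and MBP at 0.33 (limma adjusted p = 0.0704 and 0.457). The summed levels of both these lists overlapped, and no gene of the 3 lists passed on deposited TPM. For astrocytes 0 of 7 genes passed, and for GABAergic neurons 0 of 6. The part of blood, vessels or other cell types in the transporter levels was not tested.

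The genes most like each transporter over the 6 libraries were sought by Pearson correlation of log2(rescaled TPM + 1), as a description, since the groups form 2 clusters that any gene differing between them will share. For SLC17A7 these were SH3PXD2A, TSC2, SREBF1, ARHGAP23 and PCNX3, with r of 0.996 to 0.999. After removal of each group's mean, their r was 0.987 to 0.998. For either transporter, a high r after this removal comes in part from the choice itself, made on the same 6 libraries. SH3PXD2A, a scaffold protein gene, had 4.83, 3.89 and 7.04 TPM in wild boar, against 2.70, 7.32 and 4.54 TPM in domestic pig, with domestic pig 2 high as for SLC17A7. For SLC17A6 they were NUDCD1, CEMIP2, IL1RAPL1, PPP1R9A and PKNOX1, with r of 0.994 to 0.999, or 0.949 to 0.993 after that removal. IL1RAPL1, a synapse-organising receptor gene, had 6.63, 3.20 and 7.38 TPM in wild boar, against 10.2, 17.7 and 14.9 TPM in domestic pig, or a log2 difference of -0.76 after rescaling.

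The transporters themselves had r of -0.80 over the 6 libraries and -0.04 after removal of each group's mean. An r of at least 0.9 was shared by 5.0% of the genes with a symbol for SLC17A7 and by 8.19% for SLC17A6.

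No circular RNA was listed at either transporter locus, and the depth behind the list is unknown. Of the 11375 circRNAs in the deposited table, 0 overlapped SLC17A7 and 0 overlapped SLC17A6 by the gene spans of the RefSeq Sscrofa11.1 annotation, so the linear RNA is the one readout of these loci in the files.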

How the data were processed

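Total RNA was depleted of ribosomal RNA and made into stranded libraries, per the labels' protocols. STAR 2.6.0c and BWA 0.7.17 were used, per the submitters' processing notes. Their roles, the quantifier, genome build and annotation are not given in the sources used here. SLC17A7 and SLC17A6 are paralogues, and how shared reads were counted is not given either. The authors deposited TPM per protein-coding gene and per circRNA, with 1 column per library and 0 columns left unused. TPM keeps no depth, so the depth per library is unknown and no counting interval is given. Of 21280 gene identifiers, 14821 matched a symbol. CircRNA positions were read against RefSeq genes, and 99.31% lay inside one, against 47.24% after a shift of 1000000 bases.

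Genes with at least 1 TPM in at least 3 libraries were tested on log2(TPM + 1), which understates changes of low genes. Libraries were first rescaled by the median ratio over 11722 genes above 0 in all of them. The groups were compared with limma 3.58.1 (R 4.3.3), its mean-variance trend switched on. Tests were two-sided, p-values were adjusted over all 11752 genes by the Benjamini-Hochberg method, and 0.05 was the threshold. That libraries of a group are separate animals rests on the numbers in their titles, and p-values measure only the spread between these libraries.

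Members, gene lists and tests were chosen with earlier results of these data known. Of each list, the text draws on genes that passed and on the 3 of highest mean TPM, plus defining region markers and near misses picked after their values were seen. For likeness, the 5 genes of highest correlation were taken. Alternatives were deposited TPM, quantile scaling, a share of the protein-coding sum without mitochondrially encoded genes, a pseudocount of 0.1, no filter, a replicate block, and leaving out each library.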

Additional observations from a re-analysis of the deposited data

How the results depend on the processing

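The difference of the log2 ratio of SLC17A7 to SLC17A6 was 2.22. It was 1.87 and 2.17 with pseudocounts of 1 and 0.1, 2.05 from group means, and 1.96 to 2.55 with any 1 library left out. Since the ratios of the groups did not overlap, leaving out a library could not turn its direction. The runs without a library therefore show only how its size moved. SLC17A6 lay between -1.36 and -1.03 and SLC17A7 between 0.67 and 1.03 with any 1 library left out. Both moved by more than the spread between libraries on deposited TPM alone, to -1.57 and 0.30.

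Counts of genes that passed were less firm. Against 1043 higher and 1252 lower genes, there were 16 and 172 on deposited TPM, 510 and 1518 as a share of the protein-coding sum without mitochondrially encoded genes, 585 and 1217 with no filter, and 553 and 697 with a replicate block. Leaving out 1 library gave 309 to 1084 higher and 425 to 1081 lower genes. Both counts fell by over 1.5 times without any 1 library except domestic pig 2. The cause was not tested. Replicate numbers gave no clear sign of pairing: deviations of libraries with the same number had correlations of 0.112, -0.074 and -0.163. Wild boar 1 correlated best with domestic pig 1, wild boar 2 with domestic pig 3 (0.081) and wild boar 3 with domestic pig 2 (0.233). Of 480 list counts, 372 stayed equal or within 1.5 times, and 84 of the other 108 fell. The thalamus count of 3 lower genes was 0 on deposited TPM, 1 with the block and 1 to 2 without 1 library. The depth behind the TPM is unknown, so its limit on low genes such as SLC17A8 cannot be given.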

Other observations

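Ratios of the transporters to other genes of the same library need no scaling, and partners for them were picked after the values were seen. SLC17A7 and CAMK2A kept nearly the same proportion in all libraries: the ratio of SLC17A7 to CAMK2A TPM was 0.366, 0.375 and 0.341 in wild boar, against 0.367, 0.392 and 0.354 in domestic pig. Against SLC32A1, the vesicular GABA transporter, SLC17A7 stood at 7.87, 9.69 and 9.84 in wild boar, against 6.0, 8.23 and 5.69 in domestic pig, so the ranges overlapped.

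SLC17A6 was set against 5 genes. Its ratio to CALB1, the calcium buffer calbindin, moved least between the groups, at 1.77, 1.35 and 1.61 in wild boar, against 1.60, 2.71 and 1.79 in domestic pig, a log2 difference of -0.34 with overlapping ranges. Against NEUROD6 it was 0.543, 0.340 and 0.428 in wild boar, against 0.576, 1.10 and 0.578 in domestic pig, with no overlap and a log2 difference of -0.73. Its ratio to SLC32A1 was 0.871, 0.472 and 0.627 in wild boar, against 2.39, 2.13 and 1.91 in domestic pig. Against the layer 4 receptor RORB it was 0.391, 0.252 and 0.251 in wild boar, against 0.615, 0.645 and 0.509 in domestic pig, and neither ratio overlapped between the groups. Against LEF1 it was 2.38, 1.19 and 1.55 in wild boar, against 2.64, 2.56 and 2.37 in domestic pig, where wild boar 1 reached the domestic pig range.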
